A study of Meleagris gallopavo with 18 samples.

Results

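The 150 loci described here had polyA RNA at similar median levels in the testis (T) and the epididymis (E) and a lower median in the ductus deferens (DD) of male turkeys. They were chosen from the 56037 loci of the gene table by their median level in each tissue, in CPM, the count of a locus scaled to the total of its library and expressed per 1000000 counts. A locus had to have (E + 1)/(T + 1) between 0.33 and 3, which 48421 loci did. The loci inside this window were ranked by a score, the log2 ratio of the lower of the T and E medians to the DD median with 1 CPM added to each, and the first 150 were kept. The rule left out 9 loci of named cilium genes (ARMC4, CCDC40, DNAI1, DRC7, LRRC6, ZMYND10, RSPH9, TTC26 and CFAP69), of which all but TTC26 scored at or above the last of the 150. Since the levels in all 18 libraries chose the members, the tissue differences of members given below are a description and carry no test.

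The libraries came from 6 males at 38 weeks of age, numbered 2, 11, 12, 14, 15 and 16, each giving 1 library per tissue. All birds had been under photostimulation from 26 weeks, with 14 h of light and 10 h of darkness, and the labels give no other treatment. Whole pieces of tissue were used, so that fewer cells of a type and less RNA per cell cannot be told apart. Library totals ran from 64143451 to 118625345 counts.

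The avian testis makes sperm, whose tail is a motile flagellum. The epididymal region of birds is made largely of efferent ducts, whose lining holds cells with motile cilia beside cells that take up fluid, while the ductus deferens carries and stores the sperm. Cilia and flagella share one core, the axoneme, a ring of paired microtubules with dynein motors, radial spokes and regulatory complexes. Genes of this core are known to be active in germ cells that build flagella and in ciliated cells.

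The labels of the tissues were set beside marker genes whose symbols could be linked to a locus. These symbols came from tables of genes that the study found to differ between the same labelled tissues. The markers are therefore no independent check of the labels. HORMAD1, a protein of meiotic chromosomes, lay between 357 and 531 CPM in the testis, between 4.71 and 12.9 CPM in the epididymis and between 2.03 and 6.17 CPM in the ductus deferens. LRP2, the endocytic receptor megalin of absorptive epithelium, lay between 192 and 514 CPM in the epididymis, while no testis exceeded 20.5 CPM and no ductus deferens 4.23 CPM. KRT19, an epithelial keratin, reached 1009 CPM in the ductus deferens and at most 43.4 CPM in the other tissues. It was higher in each DD library than in any library of those. KRT19 and LRP2 are both on the list of 11 genes of absorptive and secretory epithelium. By the edgeR rule given below, 8 of the 11 were called higher in the epididymis than in the ductus deferens, with a background of 4.22%. Another 2 were called lower, with a background of 1.12%, so the list went both ways. With the bird as a block 6 were called higher and 3 lower, with 2.76% of all genes tested called in either direction. SLC15A1 and SLC34A2 lay on the side of KRT19, with DD medians of 168 and 81.5 CPM against 27.1 and 13.7 CPM in the epididymis. None of the symbols listed for Sertoli and Leydig cells or for blood and immune cells could be linked to a locus.

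Of the 150 members, 3 had a gene symbol in the tables that pair symbols with loci, and all 3 are on the lists of cilium genes used here. Another 9 were loci that the study lists as long non-coding RNA (lncRNA) loci, and 138 had an assembly identifier only, so that their function is not described here. Symbols were known for 83 loci of the gene table, and these came from tables that the study made from these samples, so the 3 symbols are no independent evidence of what the members do. The highest score was 6.74 and the median 3.56. The last 3 members scored 2.509, 2.503 and 2.499, and the first 3 loci beyond them scored 2.479, 2.468 and 2.462.

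The median level of a member was 34.5 CPM in the testis (4.86 to 707 over the members), 30.9 CPM in the epididymis (4.89 to 1318) and 0.774 CPM in the ductus deferens (0.00 to 24.4). CPM are not divided by transcript length and give no order of levels between members. The epididymal median was the higher in 77 members and the testicular median in 73, and in 76 members the log2 ratio of the medians, with 1 CPM added, was within 0.5 of equal. In the ductus deferens 86 members had a median under 1 CPM, while 16 were still above 5 CPM. At most 3 counts in each DD library were found for MSTRG.1957 and MSTRG.5716. Against the 0.0468 CPM that 3 counts reach in the smallest DD library, the median of MSTRG.1957 was at least 317-fold higher in the testis and 240-fold higher in the epididymis, and that of MSTRG.5716 at least 109-fold and 351-fold higher. These folds hold for the medians and not for each library: the testis of bird 11 had 0.737 CPM of MSTRG.1957, and the epididymis of bird 12 had no count of MSTRG.5716. The floor covers counting error only.

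**Figure D1:**
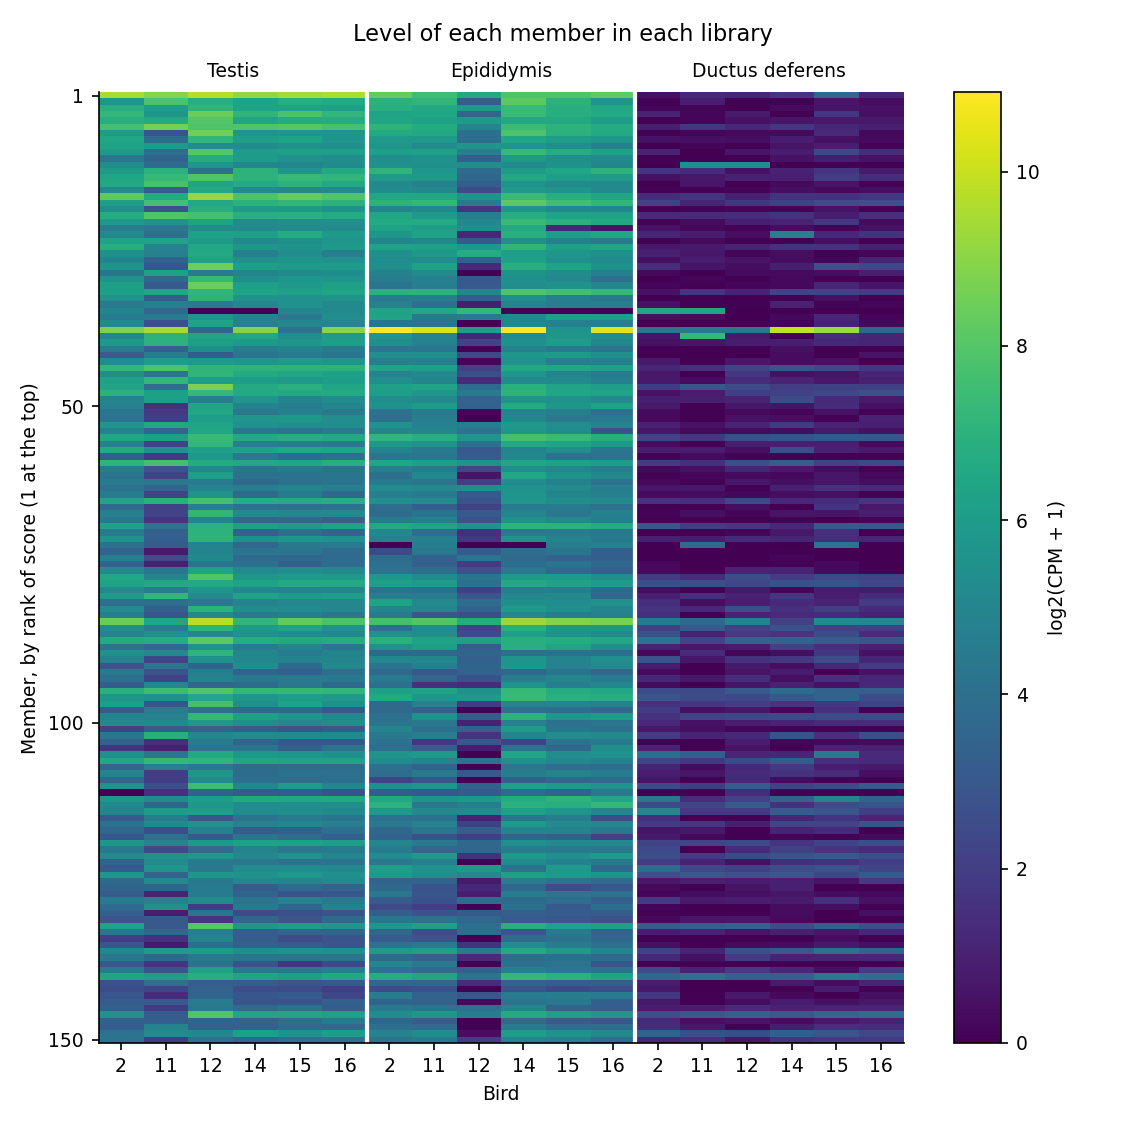
Level of the 150 members (rows, by rank of the score) in the 18 libraries (columns, by tissue and bird), as log2(CPM + 1). The testis and the epididymis were both high and the ductus deferens low by the choice of members; the epididymis of bird 12 is darker than the other epididymides, and single bright cells in the ductus deferens belong to members such as MSTRG.52329, MSTRG.50704 and MSTRG.50714.

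IQUB (MSTRG.965, rank 10), which in mammals codes for a radial spoke protein, had 15.4 CPM in the lowest testis, 66.8 CPM at the median and 261 CPM in the highest. Its epididymal levels were 24.7, 77.0 and 159 CPM and its DD levels 0.00, 0.929 and 4.11 CPM in the same order. The testis and the epididymis overlapped over most of their range, and every DD library lay under every other library. The fitted log2 difference was 5.71 ± 0.96 (SE) for T minus DD and 5.86 ± 0.90 for E minus DD, with 6 libraries per tissue.

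MAK (MSTRG.30411, rank 71), a kinase first described in male germ cells that acts in cilia and flagella of mammals, had testicular levels of 8.66, 45.3 and 137 CPM (lowest, median and highest). In the epididymis these were 2.27, 26.4 and 48.0 CPM and in the ductus deferens 0.800, 1.21 and 1.58 CPM. The groups T and E overlapped, and the DD libraries lay under both. For MAK the fitted log2 difference was 5.11 ± 0.47 (SE) for T minus DD and 4.19 ± 0.46 for E minus DD.

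RFX2 (MSTRG.34014, rank 136), a transcription factor that switches on cilium genes and is needed for spermatid development in mice, lay at 32.9, 43.3 and 64.8 CPM in the testis. The epididymis had 21.4, 58.5 and 101 CPM, and the ductus deferens had 1.20, 6.17 and 15.9 CPM, again as lowest, median and highest. The testis lay within the range of the epididymis, and no DD library reached a library of either. The fitted log2 difference for RFX2 was 2.54 ± 0.45 (SE) for T minus DD and 2.86 ± 0.48 for E minus DD. One Ensembl transcript that the tables pair with RFX2, ENSMGAT00000005845, had its counts in another locus, MSTRG.52845. This transcript was between 39.3 and 115 CPM in the testis, between 1.99 and 8.45 CPM in the epididymis and at most 3.02 CPM in the ductus deferens. The shared level of T and E in RFX2 therefore holds for the counts of MSTRG.34014 and not for the counts of every transcript paired with the gene.

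**Figure D2:**
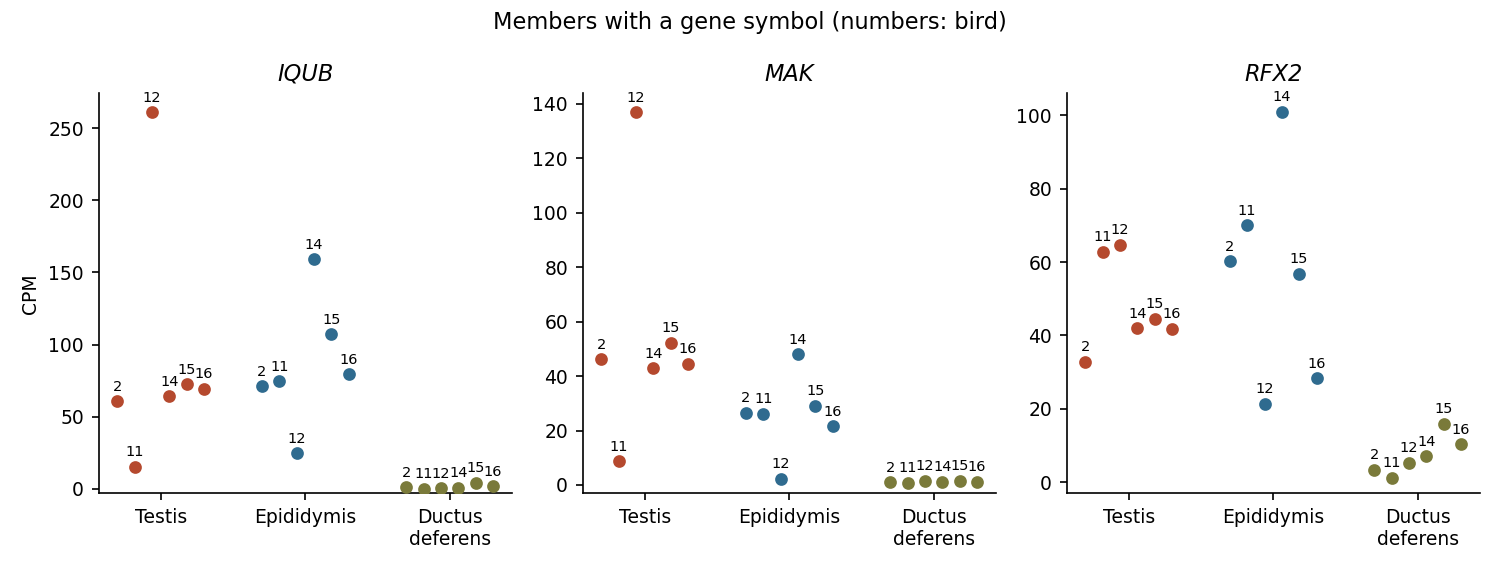
CPM of IQUB, MAK and RFX2 in each library, by tissue; each point is 1 library and its number is the bird. In CPM without TMM scaling, bird 12 was the highest testis and the lowest epididymis for all 3 genes, and the ductus deferens stayed at or under 15.9 CPM. For RFX2 the testis of bird 12 (64.8 CPM) was close to that of bird 11 (62.9 CPM).

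No sequence is shown for these loci. Of the 2 members with the highest scores, MSTRG.33223 had testicular levels of 480, 707 and 859 CPM (lowest, median and highest), epididymal levels of 98.1, 242 and 317 CPM and 0.374, 1.27 and 11.6 CPM in the ductus deferens. The 3 tissues did not overlap for this locus. MSTRG.50177 had testicular levels of 50.3, 106 and 226 CPM, epididymal levels of 8.87, 127 and 286 CPM and 0.00, 0.173 and 0.832 CPM in the ductus deferens. Here the testis lay within the range of the epididymis.

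The 9 listed lncRNA loci ranked from 31 to 149. Positions are those the study lists on the turkey assembly it mapped to, with starts counted from 1. MSTRG.7010 (chromosome 1, 140214964 to 140244102) had testicular levels of 7.76, 70.6 and 337 CPM, epididymal levels of 7.52, 28.0 and 46.3 CPM and 0.0324, 0.153 and 1.28 CPM in the ductus deferens (lowest, median and highest). MSTRG.44000 (chromosome 7, 29849413 to 29887065) had 8.17, 46.3 and 131 CPM, 7.79, 22.4 and 44.0 CPM, and 0.00, 0.0162 and 0.409 CPM in the same order. MSTRG.10897 (chromosome 10, 20398360 to 20420946) had 14.9, 92.1 and 418 CPM, 13.0, 76.0 and 119 CPM, and 2.82, 3.25 and 6.97 CPM. These 3 loci followed IQUB and MAK in that bird 11 was the lowest testis, bird 12 the highest testis and bird 12 the lowest epididymis.

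The other 6 lncRNA loci were MSTRG.19361, MSTRG.45732, MSTRG.27278, MSTRG.8289, MSTRG.40 and MSTRG.22224, with testicular medians of 11.6 to 55.5 CPM, epididymal medians of 7.58 to 104 CPM and DD medians of 0.145 to 6.25 CPM. The epididymis of bird 12 had no count of MSTRG.45732 and 0.357 CPM of MSTRG.22224, against 28.7 to 67.4 CPM of MSTRG.22224 in the other epididymides. It was the lowest epididymis for MSTRG.27278 and MSTRG.8289 as well, but not for MSTRG.19361, at 56.9 CPM, nor for MSTRG.40, at 13.9 CPM and above the median of 11.1 CPM. MSTRG.8289 (chromosome 1, 171498627 to 172330507) and MSTRG.19361 (chromosome 17, 9781188 to 10484956) span 832 and 704 kb, and their counts may hold RNA of more than 1 gene.

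The members differed from the genes tested in their gene models. An Ensembl transcript carried counts in 110 members, or 73.3%, against 39.8% of the 28489 genes that passed the low-count filter for T and E. The assembly held a median of 3 new transcripts per member and 1 per gene tested. At least 50% of the counts, however, lay on Ensembl transcripts in 17 members only, or 11.3%, against 14.9% of the genes tested. In most members, as in most genes tested, the larger part of the counts was thus on transcripts that the study assembled itself. The members were chosen for their levels in T and E, and the genes tested were not matched to them in level.

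The members' summed level was 8990 ± 2821 CPM in the testis (SD, n = 6), 7571 ± 3058 CPM in the epididymis and 653 ± 415 CPM in the ductus deferens. In the testis bird 12 stood at 14723 CPM and the other birds between 7378 and 8096 CPM. After scaling by trimmed mean of M-values (TMM), which sets libraries level on most genes, the testis of bird 12 had a sum of 8525 CPM. This lay inside the range of 6682 to 8775 CPM of the other testes. After TMM it was still the highest testis for 61 single members, with 20.9% of the genes tested. It was the lowest for 30, with 26.2% of the genes tested. In the epididymis bird 12 was the lowest, at 2402 CPM and, after TMM, at 3487 CPM, against 7141 to 11925 CPM and 7467 to 10053 CPM in the other birds. The DD sums of birds 14 and 15, at 1290 and 1053 CPM, fell to 307 and 424 CPM without MSTRG.50714, and all DD sums then lay between 297 and 483 CPM.

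**Figure D3:**
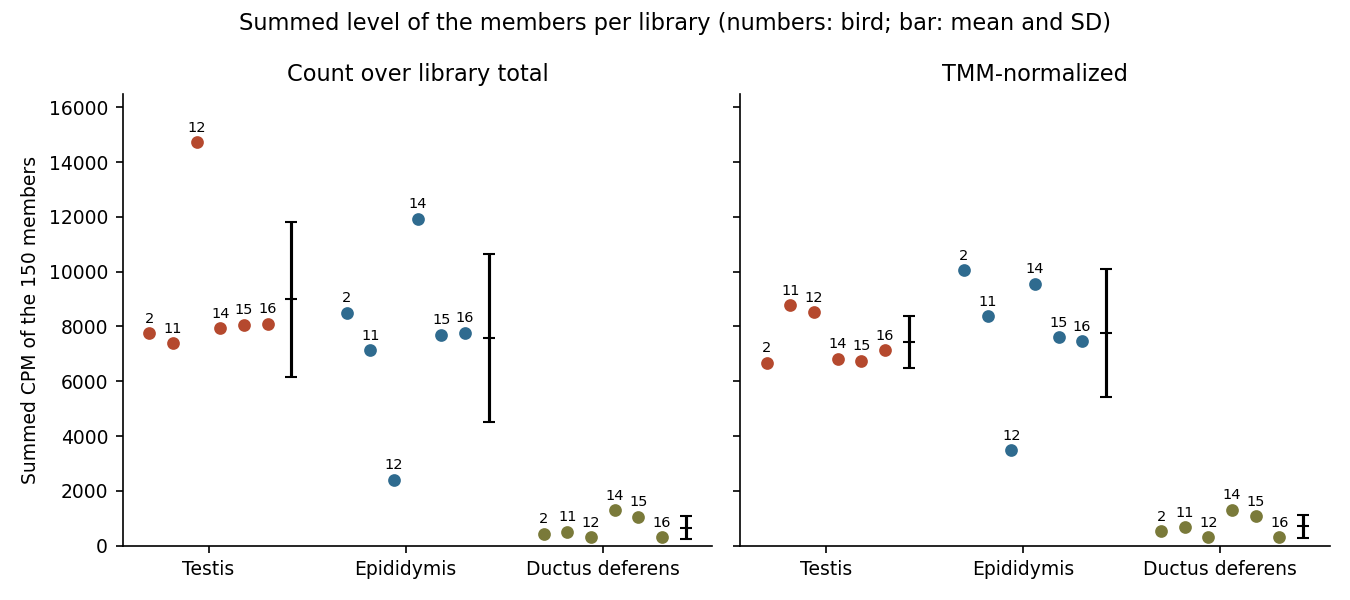
Summed CPM of the 150 members in each library, by count over library total (left) and after TMM scaling (right); points are libraries numbered by bird and bars are the mean and SD of 6 libraries. The testis of bird 12 stands apart only on the left (14723 against 8525 CPM), while the epididymis of bird 12 is the lowest on both sides (2402 and 3487 CPM).

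The epididymis of bird 12 was the lowest epididymis for 125 members, or 83.3%, against 64.6% of the genes tested, and for 115 members after TMM scaling, with 57.8% of the genes tested. A member there was at a median log2 value of -1.94 relative to its epididymal median, while the genes tested were at -0.41. For 29 members the level was under 5% of the epididymal median. This library had 64456026 counts and detected 17596 loci, against 27459 to 34711 in the other epididymides. Its summed level of 8 germ cell genes (HORMAD1, MEIOC, NDC80, KIF18A, KIF18B, SLC26A8, PCSK4 and CLGN) was 122 CPM against 445 to 671 CPM in the others. CLGN alone gave 103 CPM of the 122 CPM, and its epididymal median of 418 CPM was the main part of the sum in the other birds too. The sum of 11 genes of absorptive and secretory epithelium was 489 CPM against 866 to 1454 CPM. Of the 11 cilium loci with a symbol that were neither members nor left out by the rule, 7 were also lowest in this library. DNAH5, an outer arm dynein, was highest there at 280 CPM against at most 198 CPM, and CCNO, a cyclin needed to make many cilia in 1 cell in mammals, was at 49.6 CPM against 26.4 to 55.3 CPM. The part of these differences in the low member levels was not tested.

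The testis of bird 11 was the lowest for 85 members (56.7%, against 37.8% of the genes tested) and the highest for 29 (19.3%, against 21.4%), and that of bird 12 was the highest for 98 members (65.3%, against 41.1% of the genes tested). Bird 12 was over 3 times bird 11 in 74 members, or 49.3%, against 38.6% of the genes tested. After TMM scaling this held for 53 members, with 23.9% of the genes tested, and 30 members were over 3 times higher in bird 11, with 26.0% of the genes tested. Without TMM scaling, the summed germ cell genes were 1214 CPM in bird 11 and 1267 CPM in bird 12, with 930 to 1173 CPM in the other testes. TMM scaling lowered levels in the testis of bird 12 (members' sum from 14723 to 8525 CPM) and raised them in bird 11 (7378 to 8775 CPM). The germ cell sums were not computed after it, so they do not show equal germ cell RNA in these 2 testes.

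The median coefficient of variation over the birds was 49.8% in the testis and 50.4% in the epididymis, against 55.1% and 59.6% for the genes tested. Without the epididymis of bird 12 it was 31.8% for the members and 39.2% for the genes tested. The first principal component of log levels between birds took 74.6% of the members' variance in the testis, where it took 53.7% over the genes tested, and 78.3% in the epididymis, where it took 76.7%.

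In edgeR, a gene was called at an adjusted p under 0.01 and a log2 difference beyond 1. For T over DD 138 of 150 members were called, with a background of 30.4% of all genes tested in that direction, and 133 had no overlap between the libraries, with a background of 32.6%. For E over DD 119 of 147 members tested were called, with a background of 4.22%, and 106 had no overlap, with a background of 5.34%. Without the epididymis of bird 12 the members with no overlap rose to 143 of 150. The background of no overlap was not counted for that setting, so the rise is not read as a trait of the members. The edgeR fit of that setting called 133 of 149 members tested, with 10.3% of all genes tested called in either direction. These shares follow from the rule, and nothing is read from them. Between T and E 10 members were called higher in the testis, with a background of 23.0%, and 6 higher in the epididymis, with a background of 12.9%. No overlap with the testis higher was found in 13 members, with a background of 27.5%, and with the epididymis higher in 0, with a background of 8.41%. The window fixed these low numbers as well. With the bird as a block 5 members were called between T and E in place of 16, and 22.0% of all genes tested were called. Without bird 12 there were 29 members, with 43.4% of all genes. DESeq2 called 46.9% of all genes, and of the members 24 higher in the testis and 2 higher in the epididymis, and its size factors moved the median of all genes by 0.40 on the log2 scale.

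**Figure D4:**
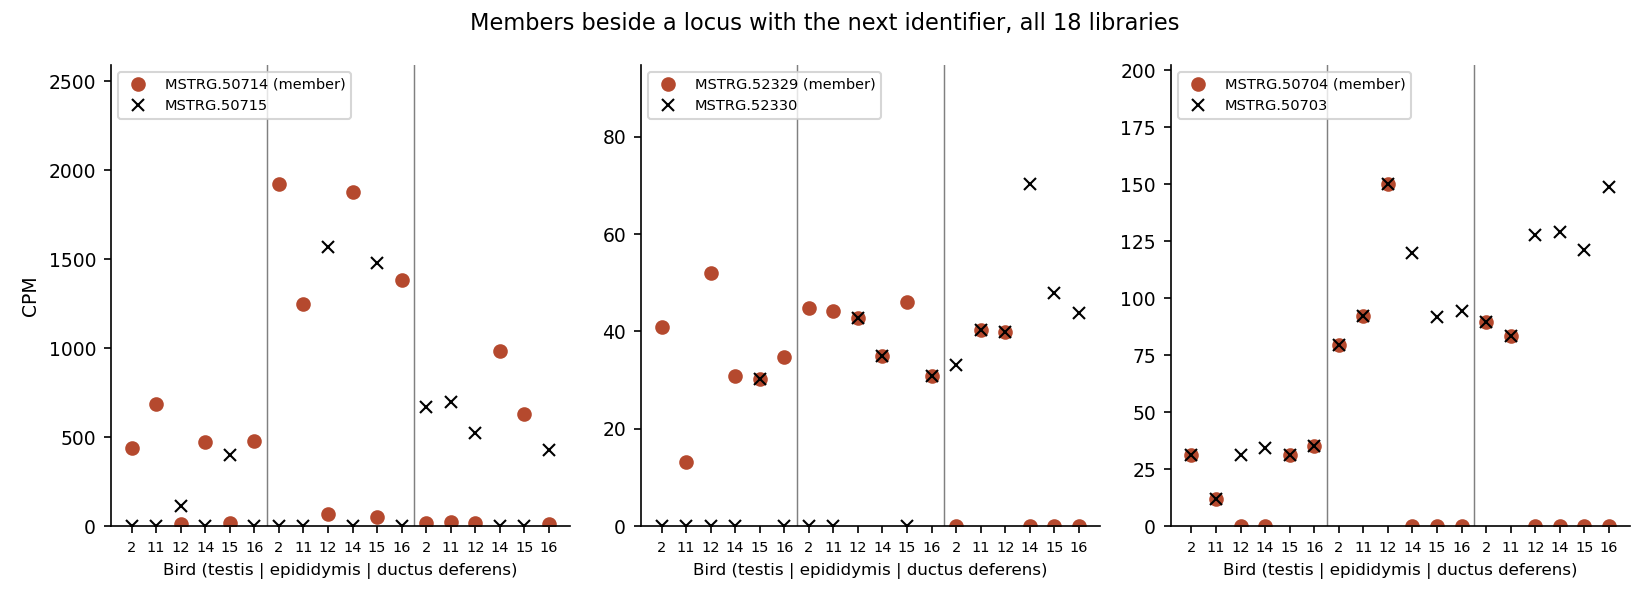
CPM of 3 members (circles) and of the locus with the adjoining identifier (crosses) in all 18 libraries, ordered by tissue and then by bird. MSTRG.50714 and MSTRG.50715 take turns, while MSTRG.52329 and MSTRG.50704 show the same value as their partner or one of the pair is at 0.

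For 3 members, chosen after their values were seen, the low DD level was tied to a neighbour in the list of identifiers. MSTRG.50714 (rank 38) had 441 to 684 CPM in the testes of birds 2, 11, 14 and 16 and 11.0 and 16.4 CPM in those of birds 12 and 15, where MSTRG.50715 had 115 and 401 CPM. In the ductus deferens it had 984 and 630 CPM in birds 14 and 15 and 12.0 to 21.7 CPM in the others, where MSTRG.50715 had 427 to 697 CPM. The loci took turns in every tissue, and where MSTRG.50714 was high MSTRG.50715 had at most 1.45 CPM. The sum of the pair had a median of 457 CPM in the testis, 1583 CPM in the epididymis and 658 CPM in the ductus deferens, and a score of -0.53 in place of 4.39.

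MSTRG.52329 (rank 12) and MSTRG.52330 had the same count in 6 libraries. In the ductus deferens MSTRG.52329 had 40.2 and 39.9 CPM in birds 11 and 12 and no count in the others, where MSTRG.52330 had 33.1 to 70.2 CPM. The summed pair scored -0.63 in place of 5.08. MSTRG.50704 (rank 35) held the same count as MSTRG.50703 in 9 libraries and no count in the other 9, while MSTRG.50703 had counts in all 18, with 83.4 to 149 CPM in the ductus deferens. The score of that pair was -1.51 in place of 4.48. If equal counts hold the same reads, the sums of these pairs count those reads more than once. Whether they do was not tested. With a locus within 3 identifiers that shared a count of at least 50 in at least 2 libraries there were 1.33% of the members and 1.12% of the genes tested. How these loci lie to each other in the genome was not analysed here.

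Equal levels of a locus in T and E do not require the same transcripts. Shares of a locus's counts per transcript were compared in 126 members with at least 2 transcripts above the filter. Summed over the 6 libraries of a tissue, the transcript with the most counts differed between T and E in 52 members, or 41.3%, against 32.5% of the 8851 loci compared. The leading transcript was also unsteady within a tissue: it was the same in all 6 testes in 45 members (35.7%, against 39.7% of all loci) and in all 6 epididymides in 43 (34.1%, against 39.0%). In 8 members, or 6.35%, against 3.29% of all loci, no transcript led in both a testis and an epididymis library. The 126 members had 462 transcripts in the comparison and the 8851 loci had 27420, and loci were not matched in number of transcripts. The shares of leading transcripts are therefore not read as a trait of the members. How reads were divided between overlapping transcripts is not given in the sources used here.

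In edgeR's test of transcript shares, 11 of 462 member transcripts, each in a different locus, changed share between T and E, with a background of 2.37% of 27420 transcripts. The share of the member transcripts was 2.38%. By loci, 11 of 126 members (8.73%) held such a transcript, with a background of 6.13%. The members were chosen on T and E levels of the same libraries, and single p-values are not given. Of the 11 transcripts 10 had the higher share in the testis, and 9 kept one direction in all 6 birds. Directions were not counted over the called transcripts of all loci, so the direction is not read as a trait of the members. Without the epididymis of bird 12, 26 member transcripts (5.18%) were called, with 4.11% of all transcripts. With limma 53 (11.5%) were called, with 7.83% of all.

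MSTRG.8867.1 held between 70.3% and 92.5% of the counts of its locus in the testis and no count in 5 epididymides. In the epididymis of bird 11 it had 0.272%. The locus itself had a testicular median of 38.5 CPM and an epididymal one of 17.6 CPM, but only 66 counts in the epididymis of bird 12. For ENSMGAT00000017243 in MSTRG.45281 the share was 60.6% to 72.0% in the testis and 0.202% to 0.480% in 5 epididymides. The epididymis of bird 12, with 462 counts on this locus, stood at 23.6%.

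MSTRG.24865.1 held 10.8% to 92.9% of its locus in the testis and had no count in any epididymis, where 3 counts would be 0.0184% to 0.153% of the locus. MSTRG.42860.1 held 7.96% to 99.5% in the testis and again had no count in the epididymis, where the limit was 0.0770% to 2.46%. The other 5 transcripts with a steady direction were MSTRG.45638.3, MSTRG.25360.1, MSTRG.27235.1 and MSTRG.8701.5, with mean testicular shares of at most 22.4% and no epididymal count, and MSTRG.19361.4, with 0.177% to 37.2% in the epididymis and a count in 1 testis only. The tissues did not overlap for any of these 9 transcripts except MSTRG.19361.4, for which bird 15's epididymis (0.177%) lay under bird 11's testis (0.313%).

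For MSTRG.17362.5 the share was 11.9% to 30.9% in the testis and 0 in the 5 epididymides where it could be computed, since the locus had no count in that of bird 12. Within the listed lncRNA locus MSTRG.27278 (chromosome 23, 1376053 to 1492514), transcript MSTRG.27278.2 was called, with 0% to 66.2% in the testis and at most 1.93% in the epididymis. MSTRG.27278.5, chosen after its values were seen and not called by the test, held 1.13% to 23.5% in the testis and 85.5% to 98.1% in the epididymis. The locus as a whole had medians of 29.2 and 30.5 CPM in these tissues. Shares of the IQUB transcripts varied widely between birds: MSTRG.965.5 held 46.0 ± 42.6% in the testis and 56.6 ± 44.2% in the epididymis (SD, n = 6). MSTRG.30411.3 of MAK held 74.0 ± 6.08% and 52.6 ± 41.3%. No transcript of IQUB, MAK or RFX2 was called.

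**Figure D5:**
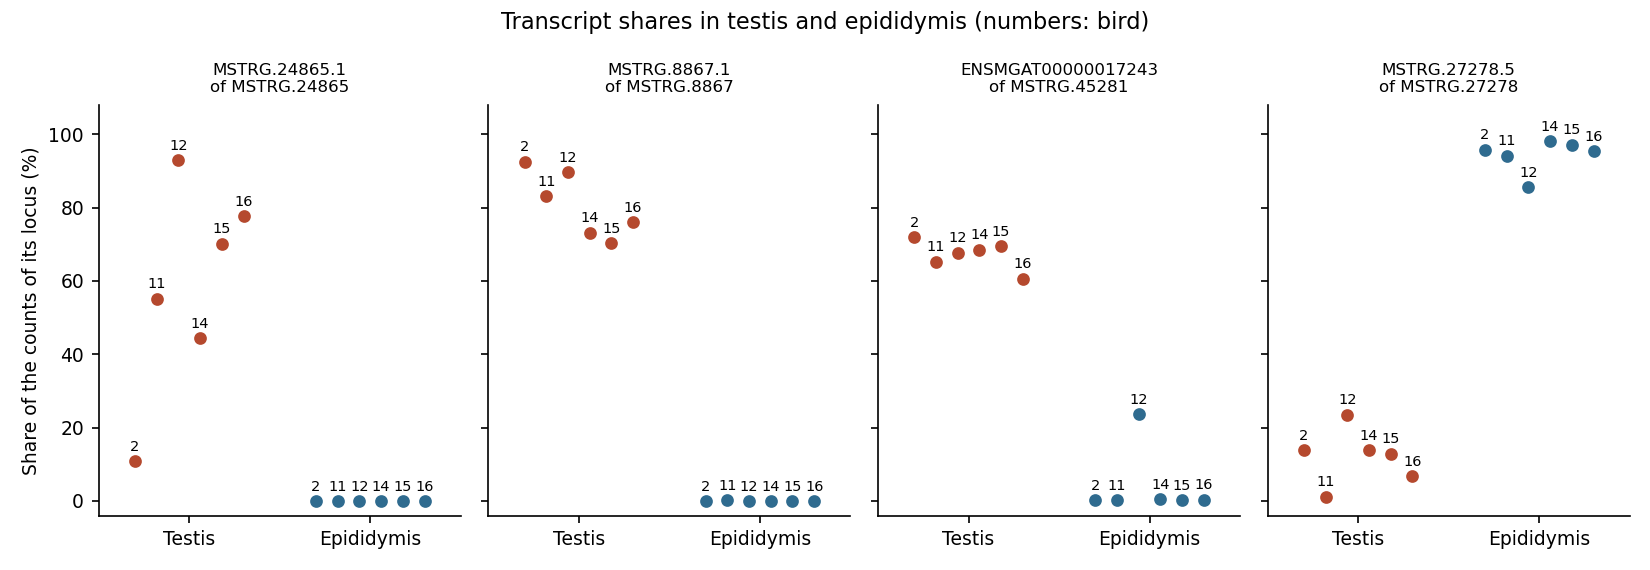
Share of the counts of its locus, in percent, held by 4 transcripts of members in each testis and epididymis library; numbers are birds. The first 3 transcripts had shares of 10.8% or more in every testis and of 23.6% or less in every epididymis, and MSTRG.27278.5 had the reverse, at most 23.5% against at least 85.5%.

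Other cilium genes with a symbol did not all have similar levels in T and E. Of the 23 loci with a symbol on the lists of axonemal dyneins, arm assembly, spokes and regulatory complexes, microtubule inner proteins, cilium building and cilium transcription factors, 3 were members, 9 were left out by the rule and 11 lay outside the window. These lists were written with earlier results of these data known, and the symbols come from tables made from these samples.

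Among the 11 outside the window, DNAH5 had a median of 119 CPM in the epididymis and no testis above 3.12 CPM, and CCNO had 26.4 to 55.3 CPM and no testis above 1.07 CPM. Both were called higher in the epididymis. The other 9 (DNAH7, DNAAF5, DRC3, RSPH3, CCDC113, TEKT2, TEKT3, SPACA9 and PLK4) were called higher in the testis: TEKT3, a tektin of the flagellar microtubules, had 282 to 568 CPM in the testis and 3.41 to 9.88 CPM in the epididymis. DRC3, of the complex that regulates dynein, had 101 to 200 CPM and 8.73 to 27.5 CPM. With the bird as a block DNAH7 was not called (edgeR adjusted p = 0.0365). The 11 loci lay outside the window of T and E, so these calls follow largely from it. For E over DD the calls were 2 of 2 dyneins, 3 of 3 spoke and regulatory complex genes and 2 of 2 cilium building genes. Among the inner proteins and tektins 2 of 3 were called, and the 1 arm assembly gene was not. The background for E over DD was 4.22%. Since symbols were known only for genes that the study found to differ between these tissues, such shares are not read as a trait of cilium genes.

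Of the 8 germ cell genes, 6 were called higher in the testis than in the epididymis and 1 lower, with the backgrounds of 23.0% and 12.9% given above. With the bird as a block 5 were called higher, and NDC80 was not (edgeR adjusted p = 0.046). Median CPM in the epididymis was 0.682% of that in the testis for MEIOC, which holds germ cells in meiosis, and 2.02% for HORMAD1. It was 23.9% for NDC80, a kinetochore protein, and 563% for CLGN, a chaperone of sperm membrane proteins in mice. For the members IQUB, MAK and RFX2 it was 115%, 58.3% and 135%. The window of T and E limited these member values in advance, and all 8 germ cell genes lay outside it. Their symbols also came from tables of genes that the study found to differ between these tissues. No contrast between the members and the germ cell genes is therefore read from these values. The part of germ cell RNA in the epididymal level of the members was not tested.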

How the data were processed

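PolyA RNA was sequenced by the authors from stranded libraries, and the reads were trimmed with Trimmomatic, mapped with STAR to the turkey genome and assembled with StringTie. The deposited values are raw counts per gene and per transcript, with each bird and tissue in its own column, and no column was left unused. The counting tool and its use of strand are not given in the sources used here, so that overlapping loci and antisense pairs are uncertain.

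CPM was count over column total. Members, gene lists and tests were chosen with earlier results of these data known. Counts were fitted with edgeR 4.0.16 (R 4.3.3; quasi-likelihood test, TMM, filterByExpr, 6 libraries of each of the tissues compared, Benjamini-Hochberg over all genes). The SE of a fitted log2 difference was its absolute value over the square root of the F value of the quasi-likelihood test. For the members, chosen on these differences, the SE carries no test. Transcript shares were fitted with diffSpliceDGE of edgeR, whose natural-log coefficients were turned into log2. Ensembl transcripts were assigned to a locus where they equalled, in all libraries, its count minus that of its assembled transcripts, or where the supplementary tables paired them and the counts allowed it. The first way gave the paired transcript in 55 of 55 loci that had both. DESeq2 1.42.0, limma 3.58.1, other scalings and filters, a bird block and leaving out each bird were alternatives. Libraries with the same number came from the same bird, and correlations of same-bird deviations between T and E were between -0.0744 and 0.151 over genes and between -0.0778 and 0.375 over the members. Over the members they were 0.0674 to 0.339 between E and DD and -0.339 to 0.317 between T and DD. P-values cover the spread between these birds.

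Genes named are members with a symbol, the members of highest score (2 shown), the last 3 inside and first 3 outside the rank limit by their scores, called transcripts with 1 direction in all birds, and the lncRNA loci. On simulated counts for T minus E, with 27303 genes, 36% of the genes changed by 1.5 on the log2 scale and 100% of those changed by 3 were recovered. The simulation gave all genes the same fixed spread, left out genes of low mean count and held no outlying library. Recovery in the real data may therefore be lower. No genome or sequence table was used.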

Additional observations from a re-analysis of the deposited data

Results flagged for a closer look

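In 45 groups of 6 libraries (the summed level and 14 named members, in 3 tissues), 10 had a highest or lowest library set apart from the rest by more than the 95% limit of Dixon's gap test. The limit allows about 1 in 20 groups where values are independent and normally distributed. These groups share the same libraries, and the summed level holds the named members. CPM need not be normally distributed, so the number expected by chance is not known here. The testis of bird 12 accounted for 6 of them: 14723 CPM for the summed members, 261 CPM for IQUB, 137 CPM for MAK, 337 CPM for MSTRG.7010, 131 CPM for MSTRG.44000 and 418 CPM for MSTRG.10897, all above the other testes. The summed level of that library was inside the range of the others after TMM scaling. The single members were looked at in CPM without TMM scaling only. Whether they stand apart after it was not tested. The testis of bird 11 was low for MSTRG.8289, at 10.5 CPM, and high for MSTRG.50177, at 226 CPM. In the ductus deferens of bird 15 MSTRG.44000 had 0.409 CPM and MSTRG.33223 had 11.6 CPM, above the other birds.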

How the results depend on the processing

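The count of members called for T minus DD (138) stayed between 131 and 147 over 15 alternatives and that for E minus DD (119) between 91 and 139 over 15, where 91 was the fit with the bird as a replicate block. Calls over all genes tested, in either direction, moved as well. They ran from 31% to 53.1% for T minus DD and from 2.76% to 10.3% for E minus DD. At an adjusted p under 0.05 the share over all genes was not counted. Of the 150 members, 117 to 139 were kept under 12 other forms of the rule. For T minus E (16 called) DESeq2 gave 26, with 46.9% of all genes tested called. All 3 tissues in one fit gave 7, with 35.7% of all genes, and the replicate block 5, with 22.0%. An adjusted p under 0.05 gave 26. Leaving out a bird gave 5 to 29, with 27.4% to 43.4% of all genes, and 29 was the count without bird 12. For member transcripts with a changed share (11 called) limma gave 53 (11.5%), with 7.83% of all transcripts. A filter of at least 10 counts in 3 libraries gave 30 (4.98%), with 4.39% of all. An adjusted p under 0.05 gave 20. With the epididymis of bird 12 left out there were 26 (5.18%), with 4.11% of all. Leaving out a bird gave 6 to 19. There were 19 (3.96%, with 3.09% of all) without bird 12 and 6 (1.3%, with 1.71% of all) without bird 14. The replicate block gave 11 again, of which 9 were shared, with 2% of all transcripts called, and 9 were shared with limma. The median spread in the epididymis was 31.8% without bird 12. The causes were not tested. Relative to TMM, DESeq2's size factors moved the median of all genes by 0.40 (log2) for T minus E and library size alone by 0.26; members called were 10 up and 6 down with TMM, and 24 up and 2 down with DESeq2. Leaving out the testis of bird 12, leaving out the epididymis of bird 12 for the shares, and summing Ensembl transcripts of a locus were chosen after seeing the data.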
